A study of Mus musculus with 30 samples.

Results

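The 6 chemokine receptor genes Cx3cr1, Ccr1, Ccr2, Ccr7, Ccrl2 and Cxcr4 were followed in cultured mouse macrophages, derived from bone marrow with the help of conditioned medium of L929 fibroblasts. They were taken by symbol from the 55414 genes counted, and all 6 were among the 15686 genes that passed the filter on low counts. Polyadenylated RNA was sequenced from cells of WT mice and of mice carrying TRα1PV, a mutant thyroid hormone receptor α1. The TRα1PV receptor fails to bind thyroid hormone and blocks the action of normal receptors. Culture lasted 7 days with 15 or 20% conditioned medium. Cells of each genotype were left unstimulated (M0), were treated with lipopolysaccharide and interferon-γ (M1), or were treated with interleukin-4 (M2), every agent being used at 20 ng/mL. The 6 groups had 5 libraries apiece, 30 in all. The labels call them biological replicates and give no age, sex or zygosity, and nothing in them states that libraries came from separate animals, so the p-values measure the spread between these samples.

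Chemokine receptors are G protein-coupled receptors that steer leukocytes along gradients of chemokines. CCR2 brings monocytes out of the marrow and into inflamed tissue, CCR1 binds several inflammatory CC chemokines, and CX3CR1 binds fractalkine and marks patrolling monocytes and many resident macrophages. CCR7 guides dendritic cells to lymph nodes, CXCR4 holds cells in the marrow through CXCL12, and CCRL2 is an atypical receptor that binds chemerin without signalling of its own.

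Libraries held 23015952 to 59086252 reads counted in genes, with a median of 33920913. The share of reads outside genes ranged from 8.84 to 14.7%, and mitochondrial genes took 0.485 to 4.56% of the reads in genes. Summed macrophage markers (7 of 7 genes detected in every group) lay at 26400 to 33600 CPM (reads relative to library size) in M0, at 7410 to 10100 CPM in M1 and at 18600 to 21800 CPM in M2. The markers did not move together. From WT M0 to WT M1 mean Lyz2, Csf1r, Cd68 and Itgam were lower, while Adgre1, Mertk and Fcgr1 were higher. Lyz2 went from 23300 ± 1410 to 3690 ± 232 CPM and Adgre1 from 1460 ± 178 to 2430 ± 354 CPM. Levels below are CPM scaled by TMM factors, given for replicates 1 to 5 in that order or as mean ± SD with 5 libraries per group. Changes are log2 fold changes ± standard error from edgeR's quasi-likelihood test, and genes are said to be called where the p adjusted by Benjamini-Hochberg over all genes tested was under 0.05.

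In unstimulated cells Ccr1, Cx3cr1 and Ccr2 were higher in TRα1PV than in WT, by 2.36-, 2.31- and 1.79-fold, and Ccrl2 was 1.69-fold lower. After lipopolysaccharide and interferon-γ, Ccr7 was 2.08-fold lower in TRα1PV and Ccrl2 1.33-fold lower, and Cx3cr1 was 1.94-fold higher. After interleukin-4, Ccr2 and Ccrl2 were lower in TRα1PV by 1.73- and 1.55-fold. So 4 of the 6 genes were called in M0, where 26% of all genes tested were called. In M1 3 of 6 were called against 20% of all genes, and in M2 2 of 6 against 13.1%. The ranges of the 5 WT and 5 TRα1PV libraries did not overlap for 2 genes in M0 (12.5% of all genes), for 2 in M1 (11.6%) and for 1 in M2 (13.8%). The median change over the 6 genes was 0.49 in M0, -0.14 in M1 and -0.18 in M2, beside -0.01, 0 and -0.01 over all genes tested.

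**Figure D1:**
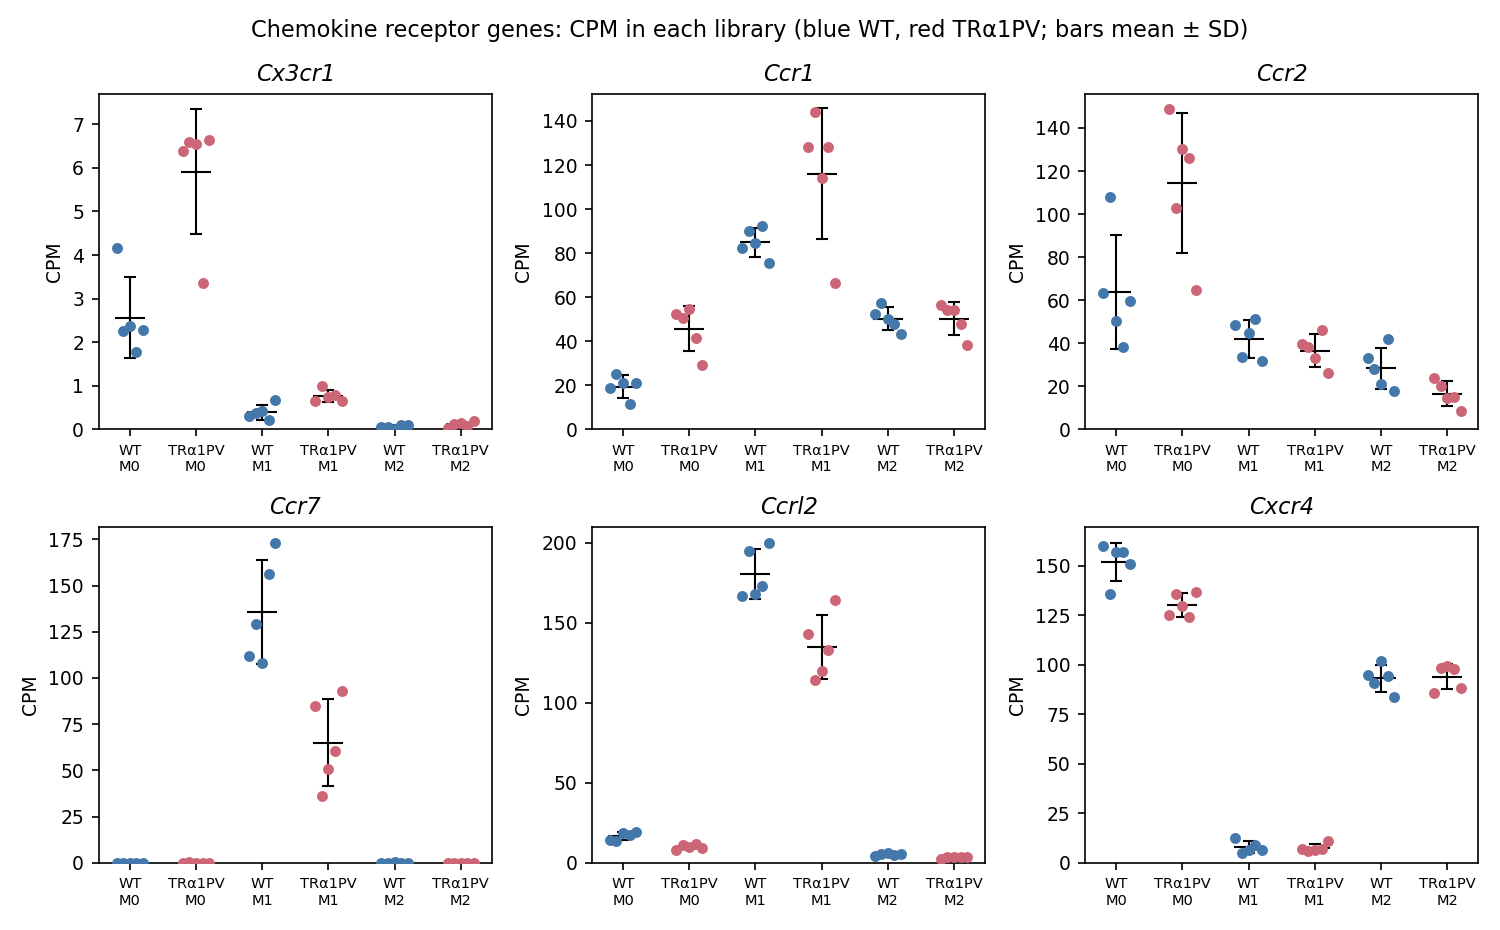
CPM of the 6 chemokine receptor genes (vertical axes, linear, each from 0) in every library of the 6 groups (horizontal axis), with WT in blue and TRα1PV in red. Points are libraries and bars show the mean ± SD of 5. Ccr7 exceeded 1 CPM in the M1 groups alone, Cxcr4 was lowest there, and Ccr1 and Cx3cr1 were higher in TRα1PV than in WT in M0.

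**Figure D2:**
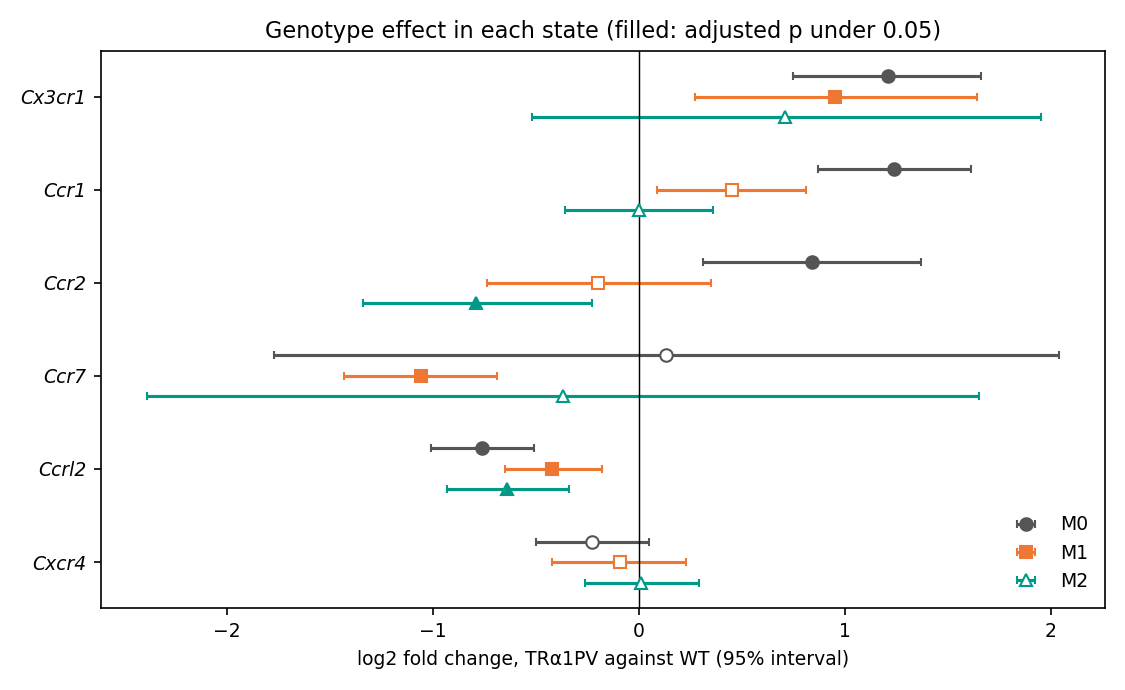
Log2 fold change of TRα1PV against WT (horizontal axis) for each receptor gene in M0 (circles), M1 (squares) and M2 (triangles), with 95% intervals from the fit. Filled symbols passed an adjusted p of 0.05. Ccrl2 lay below 0 in all 3 states, and Ccr2 lay above 0 in M0 and below 0 in M2.

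Ccr1 encodes a receptor for CCL3, CCL5, CCL6, CCL7 and CCL9. In M0 its level was 18.9, 25.1, 20.9, 11.4 and 20.8 CPM in WT and 52.5, 50.6, 54.5, 41.6 and 29.4 CPM in TRα1PV. Every TRα1PV library was above every WT library, and the change was 1.24 ± 0.18 (adjusted p = 6.47e-06). These are bulk samples, in which more cells that express a gene and more RNA per cell cannot be told apart.

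In M1 Ccr1 stood at 82.1, 89.9, 84.5, 92.1 and 75.5 CPM in WT and at 128, 144, 114, 128 and 66.6 CPM in TRα1PV. Replicates 1 to 4 of TRα1PV were above all WT libraries and replicate 5 was below them all. The change of 0.45 ± 0.17 did not pass the threshold (adjusted p = 0.0644), and without TRα1PV M1 replicate 5 it was 0.60 (adjusted p = 0.00784). With the replicate number as a block it was 0.42 (adjusted p = 0.0287). In M2 the genotypes overlapped at 50.2 ± 5.17 CPM in WT and 50.3 ± 7.41 CPM in TRα1PV, a change of 0.00 with a 95% interval from -0.36 to 0.36 (adjusted p = 0.999).

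The genotype effect on Ccr1 was therefore tested for a difference between states. It was lower in M1 than in M0 by -0.79 ± 0.25 (adjusted p = 0.0199) and lower in M2 than in M0 by -1.23 ± 0.25 (adjusted p = 0.00425). Both differences use the same M0 libraries. Among all genes tested, 26.6% were called for the first difference and 2.16% for the second, and 2 of the 6 receptor genes, Ccr1 and Ccr2, were called for each.

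Ccr2 encodes the receptor of CCL2, CCL7, CCL8 and CCL12. In M0 it was at 63.5, 108, 50.1, 38.4 and 59.5 CPM in WT and at 149, 103, 130, 126 and 64.5 CPM in TRα1PV. The groups overlapped, with WT replicate 2 above 2 of the TRα1PV libraries and TRα1PV replicate 5 close to the WT mean of 64 ± 26.7 CPM. The change was 0.84 ± 0.26 (adjusted p = 0.0161), and TRα1PV was the higher in 4 of 5 same-numbered pairs of libraries. The labels do not state that a number links the genotypes, so counts of such pairs add no support of their own.

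The Ccr2 call in M0 depended on the fit. The share of reads outside genes was 9.68 to 14.2% in WT M0 and 12 to 14.7% in TRα1PV M0, and over the 30 libraries its deviation from the group mean correlated with that of Ccr2 (r = 0.54, within-group deviations of libraries that share depth and scaling). With that share as a covariate the change was 0.49 (adjusted p = 0.157), without WT M0 replicate 4 it was 0.70 (adjusted p = 0.0609), and with only the M0 libraries in the fit it was 0.85 (adjusted p = 0.0541). The part of that share in the difference was not tested beyond this fit.

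In M2 the order of the genotypes was the opposite. Ccr2 was at 33, 27.9, 21, 41.9 and 17.9 CPM in WT M2 and at 23.7, 20.2, 14.6, 15.2 and 8.65 CPM in TRα1PV M2. Each TRα1PV library was below the WT library of the same number, a pairing of the genotypes that the labels do not state. The ranges overlapped, and the change was -0.79 ± 0.27 (adjusted p = 0.0492). That call was lost with 7 of the 10 libraries left out in turn (adjusted p up to 0.136) and with limma-voom (adjusted p = 0.0598). In M1 the groups overlapped at 41.8 ± 8.83 CPM in WT and 36.6 ± 7.56 CPM in TRα1PV, and the change of -0.20 ± 0.26 was not called (adjusted p = 0.644).

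The genotype effect on Ccr2 in M2 was lower than that in M0 by -1.63 ± 0.37 (adjusted p = 0.0126), which is the largest of the differences between states among the 6 genes. The effect in M1 was lower than that in M0 by -1.04 ± 0.37 (adjusted p = 0.0364), a call that was lost with 13 of 20 libraries left out in turn (adjusted p up to 0.0784) and when the share of reads outside genes was a covariate (-0.81, adjusted p = 0.0588).

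Cx3cr1 was expressed at low levels throughout. In M0 it was at 4.16, 2.25, 2.36, 1.77 and 2.27 CPM in WT and at 6.39, 6.6, 6.56, 3.36 and 6.65 CPM in TRα1PV. WT replicate 1 was the only WT library above the lowest TRα1PV library, and the change was 1.21 ± 0.22 (adjusted p = 0.000157). TRα1PV was the higher in 5 of 5 same-numbered pairs, which the labels do not link across genotypes. In M1 the levels were 0.307, 0.373, 0.411, 0.212 and 0.671 CPM in WT and 0.646, 0.982, 0.751, 0.793 and 0.648 CPM in TRα1PV, from 54 and 106 reads per group. The ranges met at WT replicate 5, and the change of 0.95 ± 0.33 (adjusted p = 0.0405) was no longer called with 8 of the 10 libraries left out in turn (adjusted p up to 0.112) or with limma-voom (adjusted p = 0.128). In M2 the whole groups held 11 and 22 reads, and a genotype difference was not detectable at this depth. Exons of Cx3cr1 overlap the antisense gene Gm33858 over 78 bases (1.73% of its exon bases), whose reads cannot be told apart without a known strand setting.

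Markers of monocytes were also looked at in M0, where 26% of all genes tested were called. Of 8 such markers, 4 were higher in TRα1PV M0, among them F13a1, Chil3 and Ly6c2, with overlapping ranges for Chil3 and Ly6c2. Nr4a1 was lower, and Plac8, Vcan and Ace were not called. The summed level of the 8 markers was 462 to 579 CPM in WT M0 and 1030 to 1230 CPM in TRα1PV M0. Most of it was F13a1 at 461 ± 38.9 and 1040 ± 68.9 CPM. In M2 the sums overlapped, at 1860 to 2340 CPM in WT and 1730 to 2780 CPM in TRα1PV. Most of the M2 sum was Chil3, at 2020 ± 167 and 2000 ± 380 CPM. F13a1 was at 44.9 ± 10.2 CPM in WT M2 and 137 ± 9.35 CPM in TRα1PV M2, without overlap. Of the 8 markers, 2 were called higher in TRα1PV M2, 0 lower and 6 were not called (13.1% of all genes called). In M1 the sums were 255 to 338 and 331 to 457 CPM. Of 8 neutrophil markers 6 were tested, and in M0 5 of these were higher in TRα1PV and 1 was lower. In M2 3 of the 6 were higher and 1 lower (13.1% of all genes called), and in M1 0 were higher and 1 lower (20%). S100a8, an alarmin of granulocytes and monocytes, was at 18.6 ± 10.9 CPM in WT M0 and 53.8 ± 15.1 CPM in TRα1PV M0, without overlap (1.53 ± 0.30, adjusted p = 0.000403). S100a9, Mpo, Elane and Prtn3 were higher by 1.21, 1.30, 1.46 and 1.04. Csf3r, the receptor of granulocyte colony-stimulating factor, was lower, at 218 ± 30.7 and 106 ± 9.02 CPM (-1.04 ± 0.09, adjusted p = 1.35e-09), and takes most of the summed level, which overlapped (244 to 343 and 213 to 336 CPM). Summed T and NK cell markers stayed at or under 16.4 CPM in every library, and 1 of the 8 was tested. In M0 nearly all of the sum was Cd4, at 11.2 ± 2.26 CPM in WT and 12.9 ± 2.07 CPM in TRα1PV. Summed B cell markers were 197 to 254 CPM in WT M0 and 12.1 to 16.9 CPM in TRα1PV M0, with Ms4a1 and Pax5 at 0 in WT M0. Nearly all of the WT sum was Ighm, the immunoglobulin μ heavy chain, at 230 ± 22.3 CPM in WT M0 and 7.28 ± 1.48 CPM in TRα1PV M0 (-4.99 ± 0.16, adjusted p = 1.41e-19). Of the 7 B cell markers 2 were tested, and the other, Cd79b, was higher in TRα1PV (0.51 ± 0.16, adjusted p = 0.0172). Summed fibroblast markers were 6.21 to 18.7 CPM in WT M0 and 1.15 to 2.38 CPM in TRα1PV M0. Of 7 such markers 6 were tested, and 6, 4 and 5 were lower in TRα1PV in M0, M1 and M2. In each state 0 were higher, where 26, 20 and 13.1% of all genes were called. The part of these cell types in the receptor differences was not tested.

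Ccrl2 was lower in TRα1PV in every state, without any overlap of the ranges. In M0 the levels were 14.5, 13.4, 18.9, 17.6 and 19.5 CPM in WT and 7.88, 10.8, 9.79, 11.8 and 9.09 CPM in TRα1PV (-0.76 ± 0.12, adjusted p = 2.78e-05). In M1 they were 167, 195, 168, 173 and 200 CPM in WT and 143, 114, 120, 133 and 164 CPM in TRα1PV (-0.42 ± 0.11, adjusted p = 0.00951). In M2 they were 4.2, 5.75, 5.83, 4.86 and 5.42 CPM in WT and 2.35, 3.37, 3.52, 3.89 and 3.51 CPM in TRα1PV (-0.64 ± 0.14, adjusted p = 0.00323). As the ranges were separate, the lower value of TRα1PV in all 5 same-numbered pairs adds nothing further. No alternative ended these calls. The effect in M1 was smaller than that in M0 by 0.35 ± 0.17, which did not pass the threshold (adjusted p = 0.123).

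Ccr7 was measurable in M1 alone. It was at 112, 129, 108, 156 and 173 CPM in WT M1 and at 84.8, 36.3, 50.8, 60.5 and 92.8 CPM in TRα1PV M1. The highest TRα1PV library was below the lowest WT library, and the change was -1.06 ± 0.18 (adjusted p = 9.99e-05). In M0 and M2 each group held 12 to 17 reads in all, at most 8 in a library, so no genotype difference was detectable there (95% intervals -1.77 to 2.04 in M0 and -2.39 to 1.65 in M2). The difference of the genotype effect between M1 and M0 could not be resolved for the same reason (-1.19 ± 0.97, adjusted p = 0.381). Dendritic cells are the cells in which CCR7 is best known, and 9 markers of them were tested. In M1 Zbtb46 and Xcr1 were lower in TRα1PV without overlap (-1 ± 0.23, adjusted p = 0.00222, and -1.16 ± 0.34, adjusted p = 0.0144), from 1.05 to 0.518 CPM and from 1.55 to 0.689 CPM. Batf3 was higher (0.58 ± 0.18, adjusted p = 0.0254) and 6 were not called. The summed level overlapped at 22.4 to 38 CPM in WT and 23.9 to 44.3 CPM in TRα1PV, and most of it was Ccl22 (18.1 ± 5.62 and 20.2 ± 7.23 CPM). Siglech was at 0 in both M1 groups and Cd209a in WT M1. The part of these cells in the Ccr7 difference was not tested.

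Cxcr4 showed no called genotype difference. In M0 it was at 160, 136, 157, 157 and 151 CPM in WT and at 125, 136, 130, 124 and 137 CPM in TRα1PV, and the ranges overlapped at WT replicate 2. The change was -0.23 ± 0.13 with a 95% interval from -0.50 to 0.05 (adjusted p = 0.212), and it was called at -0.22 (adjusted p = 0.0262) when only the M0 libraries entered the fit. In M1 and M2 the genotypes overlapped, with changes of -0.09 ± 0.16 and 0.01 ± 0.13 and 95% intervals of -0.42 to 0.23 and -0.26 to 0.29.

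Stimulation changed all 6 genes. With lipopolysaccharide and interferon-γ, Ccr7, Ccrl2 and Ccr1 rose and Cxcr4, Cx3cr1 and Ccr2 fell, in both genotypes. All 6 were called in WT, where 79.6% of all genes were, and all 6 in TRα1PV, where 80.7% were, so the number called says little about these genes. The ranges of M0 and M1 did not overlap for 5 of 6 in WT (61.8% of all genes), the exception being Ccr2, and for 6 of 6 in TRα1PV (70.1%). The comparisons of M1 and of M2 with M0 use the same M0 libraries.

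Ccr7 had the largest change, 11.01 ± 0.35 in WT and 9.82 ± 0.34 in TRα1PV (adjusted p = 1.68e-22 and 1.1e-21). Its size rests on the 12 and 17 reads of the M0 groups. Ccr7 passed the filter on low counts through its M1 libraries, so its difference from the other states was bound to appear. Ccrl2 rose 10.7-fold in WT, from 16.8 ± 2.72 to 180 ± 15.8 CPM, and 13.7-fold in TRα1PV, from 9.87 ± 1.52 to 135 ± 19.8 CPM (adjusted p = 6.17e-21 and 8.84e-22). Ccr1 rose 4.37-fold in WT and 2.53-fold in TRα1PV (adjusted p = 6.62e-12 and 4.38e-08). The smaller rise in TRα1PV is the same difference as that of the genotype effects given above, and M1 levels were not lower than in WT on average (116 ± 29.6 against 84.8 ± 6.59 CPM).

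Cxcr4 fell 19.3-fold in WT, from 153 ± 9.6 CPM to 12.4, 5.03, 6.34, 8.9 and 6.67 CPM, and 17.6-fold in TRα1PV, from 130 ± 5.84 CPM to 6.74, 5.81, 6.65, 6.8 and 10.8 CPM (adjusted p = 8.18e-21 and 1.51e-20). Cx3cr1 fell by 2.70 ± 0.29 in WT and by 2.95 ± 0.26 in TRα1PV on the log2 scale. Ccr2 fell by 1.65 ± 0.26 in TRα1PV (adjusted p = 1.57e-06) and by 0.61 ± 0.26 in WT (adjusted p = 0.0329). The WT change was -0.34 (adjusted p = 0.211) without WT M0 replicate 2, the WT library with the most Ccr2, -0.19 (adjusted p = 0.49) with the covariate for reads outside genes, and -0.54 (adjusted p = 0.0552) with limma-voom.

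With interleukin-4, Cx3cr1, Ccr2, Ccrl2 and Cxcr4 fell in both genotypes, and Ccr1 rose in WT. In WT 5 of 6 were called (52.4% of all genes) and in TRα1PV 4 of 6 (57.7%), with 4 of 6 ranges not overlapping in each (35.4 and 47.3% of all genes). Ccr1 rose 2.58-fold in WT, from 19.4 ± 5.04 to 52.4, 57.2, 50.3, 47.6 and 43.3 CPM (adjusted p = 1.62e-07). In TRα1PV, where M0 was already at 45.7 ± 10.4 CPM, M2 libraries were at 56.5, 54.2, 54.3, 47.9 and 38.3 CPM, and the change of 0.13 ± 0.17 was not called (adjusted p = 0.53). Ccr2 fell 2.25-fold in WT and 6.96-fold in TRα1PV (adjusted p = 0.000403 and 4.66e-10). Ccrl2 fell 3.23-fold and 2.96-fold, Cxcr4 fell 1.64-fold and 1.39-fold, and Cx3cr1 fell to the 11 and 22 reads per group given above. Cx3cr1 had at most 8 reads in an M2 library and passed the filter through other states, so its fall was bound to appear. Ccr7 stayed at 13 and 12 reads per group in M2, and its changes of 0.32 ± 0.98 and -0.18 ± 0.92 were not called.

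**Figure D3:**
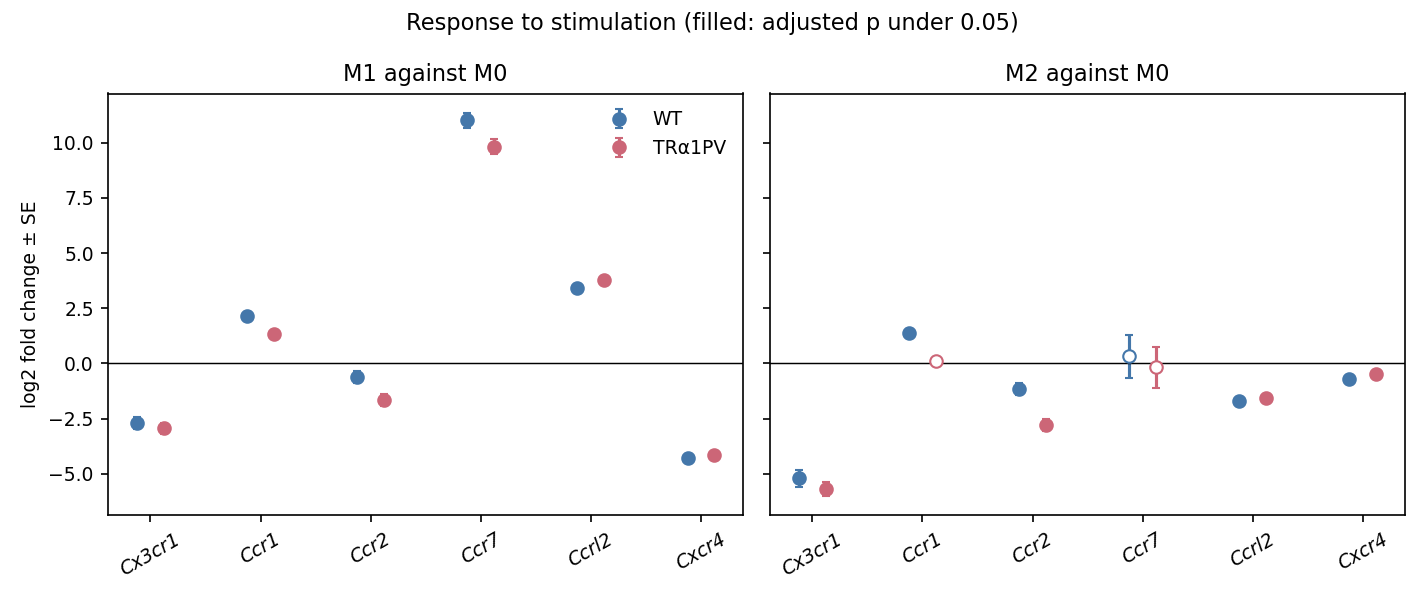
Log2 fold change ± SE (vertical axis) of each receptor gene with lipopolysaccharide and interferon-γ (left, M1 against M0) and with interleukin-4 (right, M2 against M0), in WT (blue) and TRα1PV (red). Filled symbols passed an adjusted p of 0.05. Ccr1 rose with interleukin-4 by 1.37 in WT and had a change of 0.13 in TRα1PV, and Ccr2 fell in both.

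Set directly against M2, M1 cells had more Ccr7, Ccrl2, Cx3cr1 and Ccr1 and less Cxcr4 in both genotypes. In WT 5 of 6 were called (78.5% of all genes) and in TRα1PV 6 of 6 (80.8%), with no overlap of ranges for 5 (67.2%) and 6 (70.7%). Ccrl2 differed by 34.7-fold in WT and 40.4-fold in TRα1PV, and Cxcr4 by 11.8-fold and 12.7-fold in the other direction. Ccr2 was higher in M1 than in M2 by 1.15 ± 0.27 in TRα1PV (adjusted p = 0.000284). In WT the change was 0.56 ± 0.26 (adjusted p = 0.0534), and with the replicate number as a block it was 0.59 (adjusted p = 0.0123).

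The order of levels over the 6 groups differed from gene to gene. Cx3cr1 went from M0 to M1 to M2, with TRα1PV above WT in each and overlapping ranges between the genotypes of a state. Ccrl2 fell in the order M1, M0, M2 with WT above TRα1PV, and no neighbours in that order overlapped. Cxcr4 went from M0 to M2 to M1, and the genotypes overlapped in each state. Ccr1 was highest in the M1 groups and lowest in WT M0, and TRα1PV M0 overlapped both M2 groups. Ccr2 was highest in TRα1PV M0 and lowest in TRα1PV M2, and every pair of neighbours in its order overlapped. Per kilobase of merged exon, Cxcr4 had the highest level of the 6 in M0 (84.6 CPM per kb in WT and 71.9 in TRα1PV) and in M2 (51.5 and 52). Ccrl2 had the highest level in M1 (69.3 and 52 CPM per kb), followed in WT by Ccr7 at 68.8 and in TRα1PV by Ccr1 at 40.9.

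Ccr1 and Ccr2 belong to a run of receptor genes on chromosome 9 that includes, in this order, Xcr1, Ccr1, Ccr1l1, Ccr3 and Ccr2. The neighbours were looked at for this reason, and Xcr1, Ccr1l1 and Ccr3, which have few reads, were chosen after their values were seen. In M0 the genes from Ccr1 to Ccr2 were all higher in TRα1PV. Ccr3 was at 3.87 ± 0.485 CPM in TRα1PV and at 2.38 ± 0.716 CPM in WT (0.71 ± 0.26, adjusted p = 0.041), and Ccr1l1 at 1.15 ± 0.195 and 0.64 ± 0.0767 CPM (0.85 ± 0.26, adjusted p = 0.0166). Xcr1, at 0.0402 ± 0.0457 CPM in TRα1PV M0 and 0.0507 ± 0.0741 CPM in WT M0, was not called (adjusted p = 0.923).

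Ccr3 and Ccr1l1 were not called in M2 (-0.34 ± 0.31 and -0.29 ± 0.46). Ccr2 shares 129 of its 6758 transcript words of 50 bases, or 1.91%, with other genes, so a small part of its reads could be shared.

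**Figure D4:**
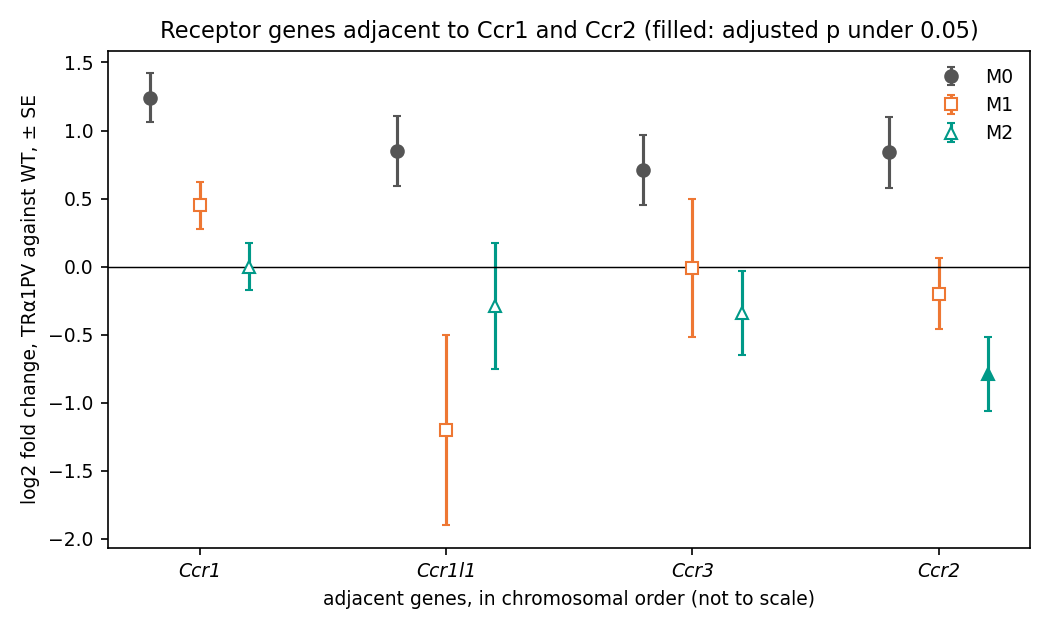
Log2 fold change of TRα1PV against WT ± SE (vertical axis) for the adjacent genes Ccr1, Ccr1l1, Ccr3 and Ccr2 in chromosomal order (horizontal axis, not to scale), in M0 (circles), M1 (squares) and M2 (triangles). Filled symbols passed an adjusted p of 0.05. All 4 genes were called above 0 in M0, and Ccr2 was called below 0 in M2.

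Within groups, Ccr1 and Ccr2 varied together. Over the 30 libraries the deviations from the group mean had r = 0.71. The libraries share depth and scaling, and 6 degrees of freedom went into the group means. Other pairs of the 6 receptor genes had within-group r from -0.54 (Ccr2 with Ccrl2) to 0.19 (Ccr7 with Ccrl2 and with Cxcr4). The deviations of Ccr1 and Ccr2 had r = 0.12 and 0.21 with summed monocyte markers, and r = -0.56 and -0.59 with summed macrophage markers. In M0 and M2 most of the macrophage sum was a single abundant gene, Lyz2. It was at 23300 ± 1410 CPM in WT M0, where the mean sum was 31300 CPM, and at 13200 ± 907 CPM in WT M2, beside 20600 CPM. The part of the other macrophage markers in these correlations was not tested. The libraries numbered 5 were the lowest of their group for Ccr1 and for Ccr2 in 5 of the 6 groups, the exception being WT M0, where replicate 4 was lowest for both.

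**Figure D5:**
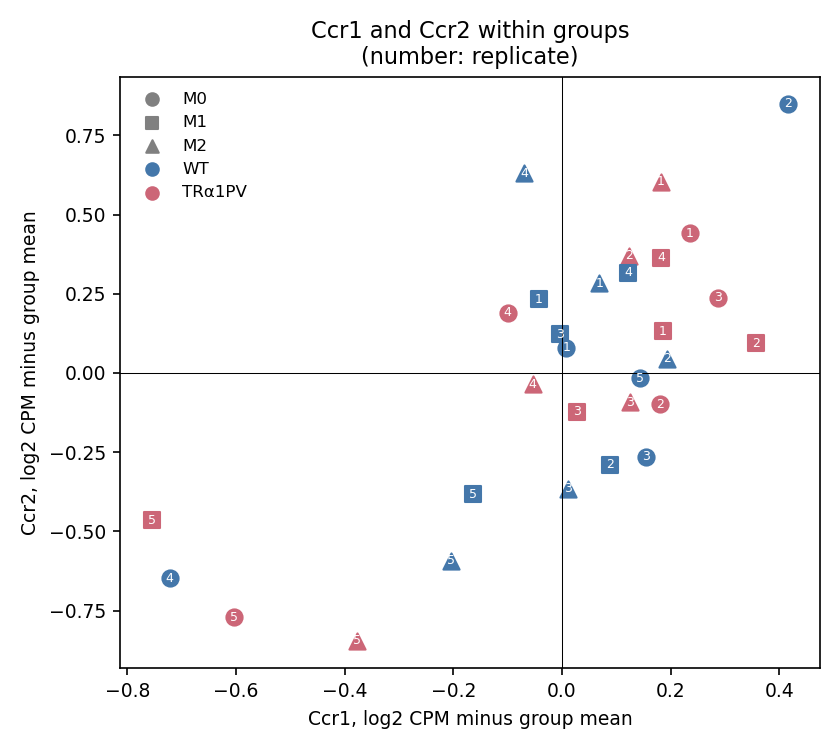
Log2 CPM minus the group mean of Ccr1 (horizontal axis) and Ccr2 (vertical axis) in each of the 30 libraries. Shape marks the state, colour the genotype, and the number inside the replicate. Libraries numbered 5 of every group but WT M0, together with WT M0 replicate 4, lie at the lower left.

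Across all 30 libraries, the levels followed the states. The log2 CPM of Ccr7 had r = 0.94 with Ccrl2 and -0.97 with Cxcr4, over libraries that fall into separate clusters by state. Among 11735 genes whose log2 CPM averaged 0 or more, the ones nearest to Ccr7 were Mmp25, Brd2 and Xkr8 (r = 0.993, 0.993 and 0.992). Nearest to Ccrl2 were St3gal5, Tmcc3 and Cyfip2 (0.994, 0.993 and 0.992), and nearest to Cxcr4 were Tfap4, Pnpla7 and Cd300a (0.992, 0.99 and 0.99). Ccr1 and Ccr2 had weaker neighbours, namely Pdk3, Timeless and Gbp9 for Ccr1 (0.916, 0.9 and 0.9) and Itgam, Clec4d and Clec4n for Ccr2 (0.87, 0.858 and 0.849). For Cx3cr1 they were A630001G21Rik, Slc8a1 and Sash1 (0.967, 0.964 and 0.961).

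The RefSeq promoters (GRCm38.p6, 250 bases before to 50 after the start) of Ccrl2, Ccr2 and Ccr1 are shown because Ccrl2 was lower in TRα1PV in all 3 states and the genotype effect on Ccr2 and Ccr1 differed between states. A promoter was matched for 5 of the 6 genes, all but Ccr7. Capitals mark matches to a motif on either strand. The promoter of Ccrl2 lies at chr9:111057469-111057768 on the minus strand and holds the NF-kB site from 56 bases before the start. That site is found in 4.51% of 32851 promoters of this length and in at least 1 promoter of 5.14% of 27025 genes. RefSeq lists 3 promoters for Ccrl2, of which the first is printed, and the other 2 hold no match to it. The promoter of Ccr2 lies at chr9:124101933-124102232 on the plus strand and holds the core of the interferon-stimulated response element, GAAANNGAA, on the opposite strand from 86 bases before the start, a motif in 8.56% of promoters and in those of 9.76% of genes. The promoter of Ccr1 lies at chr9:123968643-123968942 on the minus strand and holds no match.
Ccrl2: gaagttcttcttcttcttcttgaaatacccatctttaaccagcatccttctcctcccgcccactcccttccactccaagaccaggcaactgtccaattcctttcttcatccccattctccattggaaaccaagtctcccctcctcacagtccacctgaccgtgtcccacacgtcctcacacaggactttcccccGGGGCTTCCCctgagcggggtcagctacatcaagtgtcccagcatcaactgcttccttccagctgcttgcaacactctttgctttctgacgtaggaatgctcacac
Ccr2: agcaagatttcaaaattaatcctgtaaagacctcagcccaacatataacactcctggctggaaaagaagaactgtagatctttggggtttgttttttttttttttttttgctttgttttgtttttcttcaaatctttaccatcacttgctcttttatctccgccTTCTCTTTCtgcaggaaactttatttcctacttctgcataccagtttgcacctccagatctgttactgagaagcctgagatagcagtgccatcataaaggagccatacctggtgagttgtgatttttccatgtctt
Ccr1: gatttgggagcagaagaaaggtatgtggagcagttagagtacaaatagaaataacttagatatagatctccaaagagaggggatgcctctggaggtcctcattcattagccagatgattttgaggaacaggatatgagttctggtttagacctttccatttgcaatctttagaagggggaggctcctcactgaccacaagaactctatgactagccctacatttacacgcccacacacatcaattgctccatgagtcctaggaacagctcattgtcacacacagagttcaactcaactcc
No window of the 5 genes holds the gamma-activated site TTCNNNGAA (8.3% of promoters) or the half-site AGGTCA (16.3%) of thyroid hormone receptors. These matches describe letters in the window and say nothing of binding.

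Other receptors of the family were given by count from a fixed list. Of 20 further chemokine and chemerin receptor genes, 8 were tested. In M0 4 of them were higher in TRα1PV, among them Ccr1l1, Ccr3 and Cxcr2, and 2 were lower, where 26% of all genes were called. In M1 Xcr1 was lower (20% of all genes called), and in M2 2 were lower, among them Cmklr1 (13.1%). Cxcr2 and Xcr1, both with few reads, are named after their values were seen. Cmklr1, the signalling receptor of chemerin, was lower in TRα1PV in M0 (28.8 ± 3.29 against 40.8 ± 3.49 CPM, adjusted p = 0.00145) and in M2 (adjusted p = 0.00141). Cxcr3, the receptor of interferon-induced CXC chemokines, was lower in M0, at 4.17 against 7.41 CPM (-0.83, adjusted p = 0.000287).

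Among the ligands of the 6 receptors, 12 of 16 were tested. In M0 4 were higher in TRα1PV and 3 lower, in M1 2 were higher and 1 lower, and in M2 5 were higher and 1 lower, beside the same 26, 20 and 13.1% of all genes. The CCR2 ligands Ccl12 and Ccl7 were among those higher in M0, by 2.62 ± 0.33 and 1.19 ± 0.30 (adjusted p = 5.17e-07 and 0.00395), with Ccl12 at 2.14 ± 0.439 against 0.359 ± 0.164 CPM. Ccl12, Ccl8 and Ccl7 were higher in M2 by 1.45, 1.24 and 0.92. Ccl6, a CCR1 ligand, was lower in TRα1PV in M0 (-1.12), M1 (-1.22) and M2 (-0.54). In M1 Ccl4 and Ccl3 were higher by 1.03 and 0.68.

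Of 25 genes for G proteins, receptor kinases, arrestins, RGS proteins and sheddases, 25 were tested. In M0 4 were higher and 3 lower in TRα1PV, in M1 2 and 3, and in M2 2 and 5. So 7, 5 and 7 of the 25 were called, which in M0 and M1 is near the 26 and 20% of all genes and in M2 is beside 13.1%. Pik3r5 and Pik3cg, subunits of the phosphoinositide 3-kinase downstream of G protein βγ, moved in opposite directions in M0 (-0.65 ± 0.08 and 0.48 ± 0.10). Rgs1, which shortens G protein signalling, was lower in TRα1PV M1 at 121 against 234 CPM (-0.95 ± 0.23, adjusted p = 0.00392). Rgs2, another member of that family, was lower in M1 and M2 (-0.45 and -0.57). With lipopolysaccharide and interferon-γ, Rgs10 and Pik3cg fell in WT by 3.59 and 3.30 on the log2 scale and Rgs1 rose by 2.98.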

How the data were processed

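Each deposited file holds the raw counts of reads for 1 library by Ensembl gene, without normalization. The submitters' processing notes name HTSeq 1.99.2, HISAT2 2.2.1, Trimmomatic 0.39, R 4.3.2 and the build GRCm39, among other tools. Neither the annotation release nor the strand setting is given in the sources used here. Symbols were matched for 52081 of 55414 genes, and all 6 receptor genes matched 1 identifier each. Gene order, exon lengths and shared words came from a GRCm38 annotation and promoters from RefSeq GRCm38.p6, so no coordinate is in the build of the counts.

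Genes were kept with filterByExpr (minimum count 10, minimum total 15), scaled by TMM, and all 30 libraries entered 1 edgeR 4.0.16 quasi-likelihood fit in R 4.3.3 with a mean per group (24 residual degrees of freedom). Tests were two-sided, with Benjamini-Hochberg adjustment over 15686 genes. Standard errors, which are approximate, are the size of the log2 fold change over the square root of F. The fit was tested on simulated data. Depth sets the precision of Ccr7 outside M1 and of Cx3cr1 in M2.

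The members and lists were chosen with earlier results of these data known. The text names the 6 members, for each the 3 genes with the highest correlation of log2 CPM at a mean of at least 0, and at most 4 called genes of each list per comparison, by size of change. Some of those allowed are left out for length, and a few list genes are not reported here. Alternatives were RLE size factors, DESeq2 1.42.0, limma-voom 3.58.1, no filter, only the compared groups, replicate blocks, each library left out in turn, and a covariate for the share of reads outside genes. Leaving out all libraries numbered 5, or both M0 libraries numbered 2, was chosen after seeing the data. The labels give the replicate number under the tag batch.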

Additional observations from a re-analysis of the deposited data

Results flagged for a closer look

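In 4 of 36 sets of 5 libraries (6 genes in 6 groups), 1 library stood far from the other 4. Chance gives this in about 1 in 20 sets. Cx3cr1 in WT M0 replicate 1 was at 4.16 CPM, where the others were at 1.77 to 2.36 CPM. Cx3cr1 in TRα1PV M0 replicate 4 was at 3.36 CPM, where the others were at 6.39 to 6.65 CPM. Ccr7 in TRα1PV M0 replicate 2 was at 0.21 CPM, which is 8 reads, where the others had 1 to 4 reads. Cxcr4 in TRα1PV M1 replicate 5 was at 10.8 CPM, where the others were at 5.81 to 6.8 CPM.

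The effect of the genotype differed between states for Ccr1 and Ccr2 by a test of the difference itself (edgeR). For Ccr1 the effect in M1 minus that in M0 was -0.79 and that in M2 minus that in M0 was -1.23. For Ccr2 these were -1.04 and -1.63. Each comparison uses the same M0 libraries.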

How the results depend on the processing

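Over 66 tests (6 genes in 11 comparisons), 57 kept their side of the threshold under every alternative run, and 9 did not. Of 1415 alternative values, 42 lost a call, 19 gained one and 29, of 9 tests, changed sign, of which 0 were called in either fit. Mean levels moved by more than 1 SD in 0 of 36 groups with RLE size factors and in 7 with plain totals.

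For TRα1PV against WT in M1, Cx3cr1 was 1.00 with limma-voom and 0.94 without the filter (both not called), and 0.79 to 1.21 with 1 library left out. Ccr1 in M1 was called at 0.45 with DESeq2, 0.42 with the replicate block, 0.56 without libraries numbered 5 and 0.45 without the M0 libraries numbered 2, and ranged from 0.36 to 0.60 with 1 left out. In M0 Ccr2 lost its call at 0.85 with only the compared groups and at 0.49 with the covariate, and ranged from 0.70 to 1.12. Cxcr4 in M0 was called at -0.22 with only the compared groups. In M2 Ccr2 lost its call at -0.81 with limma-voom and at -0.75 without libraries numbered 5, and ranged from -0.95 to -0.60. The members called in M2 then numbered 1 in both, and from 1 to 2 with 1 library left out.

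For M1 against M0 in WT, Ccr2 lost its call at -0.54 (limma-voom), -0.19 (covariate) and -0.33 (without the M0 libraries numbered 2), and ranged from -0.75 to -0.34. For M1 against M2 in WT it was called at 0.60 (limma-voom), 0.56 (no filter), 0.54 (only the compared groups), 0.59 (replicate block), 0.60 (block within genotype), 0.53 (covariate) and 0.56 (without the M0 libraries numbered 2), and ranged from 0.43 to 0.74. For the genotype effect in M1 minus that in M0, Ccr2 lost its call at -0.81 with the covariate, leaving 1 member called, and ranged from -1.31 to -0.90, with 1 to 3 members called. Ccrl2 was called at 0.45 without the M0 libraries numbered 2 and ranged from 0.26 to 0.42. The causes of these changes were not tested.

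The changes of sign were in values that were not called. Ccr1 in M2, 0.00, was 0.00 with RLE size factors and DESeq2, -0.01 with limma-voom and the replicate block and -0.09 with the covariate, and ranged from -0.05 to 0.09 with 1 library left out. Without libraries numbered 5, Cx3cr1 (genotype effect in M1 minus that in M0) was 0.15, Cxcr4 for the same difference -0.08 and Cxcr4 in M2 0.00, and these ranged from -0.50 to 0.01, -0.05 to 0.36 and -0.02 to 0.05. Cxcr4 in M1 ranged from -0.28 to 0.13. Without the M0 libraries numbered 2, Ccr7 was -0.43 in M0, 0.47 for M2 against M0 in TRα1PV and 0.07 for the genotype effect in M2 minus that in M0, and these ranged from -0.51 to 0.41, -0.47 to 0.47 and -0.80 to 0.14. Ccr7 for M2 against M0 in WT ranged from 0.00 to 0.60.

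As a check of pairing, log2 CPM deviations of WT and TRα1PV libraries with one number had correlations of -0.37 to 0.26 (M0), -0.17 to 0.17 (M1) and -0.02 to 0.21 (M2), and in 0, 2 and 2 of 5 pairs a library correlated best with its own number. Within WT this was so in 1 (M0 with M1), 2 (M0 with M2) and 3 (M1 with M2) of 5 pairs. For the same pairs of states within TRα1PV it was so in 3, 4 and 4 of 5. There the mean correlations were 0.074, 0.184 and 0.084 for the same number and -0.019, -0.046 and -0.021 for other numbers. In WT they were 0.024, 0.053 and 0.083, beside -0.006, -0.012 and -0.021. The replicate block changed no other call among the 66 tests. Over all genes, 1876 higher and 2196 lower calls in M0 became 1140 and 1318 with only the compared groups and 3101 and 3306 without the M0 libraries numbered 2. In M1 1528 and 1604 became 2602 and 2859 with the covariate. In M2 963 and 1092 became 2041 and 1967 with only the compared groups, 354 and 509 without libraries numbered 5 and 1561 and 1450 without the M0 libraries numbered 2. For the genotype effect in M1 minus that in M0, 2091 and 2084 became 3236 and 3092 without the M0 libraries numbered 2. For that in M2 minus that in M0, 110 and 229 became 216 and 311 (DESeq2), 66 and 207 (no filter), 214 and 363 (covariate), 43 and 151 (without libraries numbered 5) and 231 and 258 (without the M0 libraries numbered 2). Few reads limit Ccr7 outside M1 and Cx3cr1 in M2.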

Other observations

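The within-group deviations of Ccr2 correlated with the share of mitochondrial reads (r = 0.49, 30 libraries that share depth and scaling). Within groups Ccr1l1 and Ccr3, its neighbours on chromosome 9, had r = 0.11 and 0.36 with Ccr2. Mean levels of both genes fell with stimulation in both genotypes. In WT Ccr1l1 went from 0.64 ± 0.0767 CPM in M0 to 0.0867 ± 0.0208 in M1 and 0.129 ± 0.0421 in M2. Ccr3 in WT went from 2.38 ± 0.716 to 0.216 ± 0.146 and 0.926 ± 0.414 CPM. In TRα1PV Ccr1l1 fell by 4.88 ± 0.44 with lipopolysaccharide and interferon-γ and by 3.38 ± 0.34 with interleukin-4 on the log2 scale. In TRα1PV Ccr3 fell by 4.15 ± 0.36 and 2.39 ± 0.28. Ccr1l1 passed the filter on low counts through its M0 libraries, so its fall was bound to appear. The size of that fall rests on 5 reads in TRα1PV M1 and 21 in TRα1PV M2. Xcr1, which lies before Ccr1, averaged 0.0507 CPM in WT M0 and 0.0402 CPM in TRα1PV M0 and reached 1.55 ± 0.382 CPM in WT M1 and 0.689 ± 0.198 CPM in TRα1PV M1. These genes were chosen after their values were seen.

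Of the ligands, Ccl21a and Ccl21b, which act on CCR7, had 0 counted reads in all 30 libraries. Alignments that were not unique, 5.01 to 7.93% per library, were tallied outside genes, so these values do not show absence.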
